A study of Mus musculus with 8 samples.

Results

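Chromatin loops and topologically associating domains (TADs) of the newborn lens were compared between the lens epithelium and the lens fiber cells. The classes were set by position. A loop of one list was matched when a loop of the other list had both anchor midpoints within 10 kb, and was called present in 1 cell type only when no loop of the other list had both midpoints within 25 kb. A TAD was matched when both of its ends lay within 25 kb of those of a TAD in the other list. The lists held 15687 loops and 4437 TADs of lens cells, namely 8005 loops and 1796 TADs of lens epithelium and 7682 loops and 2641 TADs of lens fiber cells, out of 24146 loops and 8041 TADs of the whole series.

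Hi-C, which counts how often pairs of genomic sites are ligated together in the nucleus, was done on lenses of CD-1 mice at postnatal day 0.5, which were cut under a microscope into epithelium and fiber cells. There were 2 replicates of each, every replicate pooled 30 lenses, and tissue was fixed in 2.0% formaldehyde. Both groups thus shared strain, age and treatment and differed by design in the dissected part of the lens. The paper also reports more Hi-C contacts in fiber than in epithelium, and a larger share of contacts between chromosomes. The lists were not adjusted for either here, so these differences cannot be told apart from those of cell type. The authors merged the replicates into 1 loop list and 1 TAD list per cell type, so no replicate error could be had and no test between cell types was possible. Intervals are 95% Wilson intervals for shares and exact Poisson intervals for contact counts, and both cover counting error only. The lists hold no RNA, so the labelled cell types could not be checked against their marker genes.

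The lens epithelium is a single layer of cells that still divide at the front of the lens. At the lens equator these cells leave the cell cycle and elongate into fiber cells, which fill with crystallins and later degrade their nuclei and other organelles. Loops in Hi-C maps form when the ring-shaped cohesin complex reels in DNA until it meets CTCF, a zinc finger protein bound at the anchors, while other loops join promoters and enhancers. TADs are stretches of chromosome whose parts touch each other more often than they touch the neighbouring DNA, and their corners often carry a loop.

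Promoters show how such features sit on genes. Of 156 genes in the lists described further down that have a RefSeq promoter window (GRCm38.p6, 250 bases before to 50 bases after a gene start), 25 had a window in an anchor of a loop present in 1 lens cell type only, and 4 of these windows also held a CTCF peak. They are shown because they join a loop that differed between the lists, a gene of known role and a CTCF site. Hif1a encodes the oxygen-regulated subunit of hypoxia-inducible factor 1, and its window at chr12:73907617-73907916 on the plus strand lay in anchors of fiber-only loops and held a peak of the fiber list alone. Pds5b encodes a cohesin regulator, and its window at chr5:150673577-150673876 on the plus strand lay in an anchor of a fiber-only loop and held a peak of both lists. Slc2a1 encodes the glucose transporter GLUT1, and its window at chr4:119108495-119108794 on the plus strand lay in an anchor of an epithelium-only loop yet held a peak of the fiber list alone. Stag1 encodes a cohesin subunit, and its window at chr9:100643198-100643497 on the plus strand did the same. Capitals mark the words AGGTGGC and AGGGGGC, which are common forms of the core of the CTCF motif, searched on both strands.
Hif1a: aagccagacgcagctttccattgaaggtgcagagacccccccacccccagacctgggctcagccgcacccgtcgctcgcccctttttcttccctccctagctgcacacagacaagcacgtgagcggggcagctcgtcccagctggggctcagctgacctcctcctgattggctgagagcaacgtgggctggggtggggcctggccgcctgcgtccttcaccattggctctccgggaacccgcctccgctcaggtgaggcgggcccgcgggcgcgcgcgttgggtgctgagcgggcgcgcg
Pds5b: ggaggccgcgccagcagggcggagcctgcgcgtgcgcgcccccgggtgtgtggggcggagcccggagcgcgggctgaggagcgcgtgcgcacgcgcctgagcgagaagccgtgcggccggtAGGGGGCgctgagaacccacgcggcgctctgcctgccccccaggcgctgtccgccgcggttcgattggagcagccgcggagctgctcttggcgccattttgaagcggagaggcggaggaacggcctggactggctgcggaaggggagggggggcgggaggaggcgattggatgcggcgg
Slc2a1: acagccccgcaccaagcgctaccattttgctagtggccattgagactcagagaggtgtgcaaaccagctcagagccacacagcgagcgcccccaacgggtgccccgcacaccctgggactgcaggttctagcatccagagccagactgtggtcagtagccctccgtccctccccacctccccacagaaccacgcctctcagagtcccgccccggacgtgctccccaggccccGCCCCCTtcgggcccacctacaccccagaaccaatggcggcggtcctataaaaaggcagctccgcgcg
Stag1: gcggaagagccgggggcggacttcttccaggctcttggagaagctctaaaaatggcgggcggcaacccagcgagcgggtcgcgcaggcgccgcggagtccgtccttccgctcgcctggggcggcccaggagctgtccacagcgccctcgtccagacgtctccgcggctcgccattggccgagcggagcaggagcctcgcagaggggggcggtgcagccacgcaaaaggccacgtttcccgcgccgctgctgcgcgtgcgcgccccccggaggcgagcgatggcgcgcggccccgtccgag
The word stood on the plus strand in the Pds5b window and on the minus strand in the Slc2a1 window, and neither word was found in those of Hif1a and Stag1. Either word was present in 16.0% of all 32851 windows, in 52.7% of the 391 windows with a peak in both lists, in 32.3% of the 1066 with a peak in the fiber list alone and in 15.0% of the 31357 with no peak.

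Most loops of each cell type had a counterpart in the other. In lens epithelium, 4441 of 8005 loops were matched (55.5%, interval 54.4 to 56.6), 1271 had a fiber loop between 10 and 25 kb away, and 2293 (28.6%, interval 27.7 to 29.6) had none within 25 kb. In lens fiber cells, 4442 of 7682 were matched (57.8%, interval 56.7 to 58.9), 1280 lay between 10 and 25 kb from an epithelium loop, and 1960 (25.5%, interval 24.6 to 26.5) had none within 25 kb. With the epithelium list reduced to the length of the fiber list, the matched shares were 57.0% and 57.1%. Nearly the same number of loops is matched in both lists, so lists of equal length must give nearly equal shares. These values therefore cannot tell whether the lists differ. The share present in 1 cell type only was higher in epithelium than in fiber on 16 of 20 chromosomes. Matched loops were nearly equal in number on each chromosome too, with 312 in both lists on chromosome 1 and 65 on chromosome X. The longer list of a chromosome thus tends to have the higher share, and this count cannot tell whether the lists differ either. On chromosome X the share present in 1 cell type only was the highest in both lists, at 41.2% of 165 epithelium loops and 45.5% of 178 fiber loops, while on the autosomes it lay between 20.4% and 36.5%. The fiber list also held 2 loops on chromosome Y, where the epithelium list held none. Near the 25 kb limit, 513 epithelium loops and 529 fiber loops lay between 20 and 25 kb from the nearest loop of the other list, and 94 and 89 lay between 25 and 30 kb. The first 2.5 kb past the 10 kb limit held 382 and 376 loops and the last 2.5 kb before it held 811 and 812. Absence from a list means that the loop caller did not list a loop there, not that the sites did not touch.

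The share of matched loops differed more between anchor widths than between cell types. Among loops with 5 kb anchors, the sharpest the lists hold, 80.2% of 1467 epithelium loops and 85.2% of 1226 fiber loops were matched, and 149 and 62 were present in 1 cell type only. Among loops with 25 kb anchors, 39.9% of 3332 and 40.8% of 3293 were matched, and 1316 and 1274 were present in 1 cell type only. A loop of 25 kb anchors moves in steps of its own width, so a shift by 1 step already takes it out of the 10 kb range. Such a shift puts it in the class between 10 and 25 kb, which held 686 and 674 loops at this width. It does not make it a loop present in 1 cell type only. The cause of the difference between widths was not tested.

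**Figure D1:**
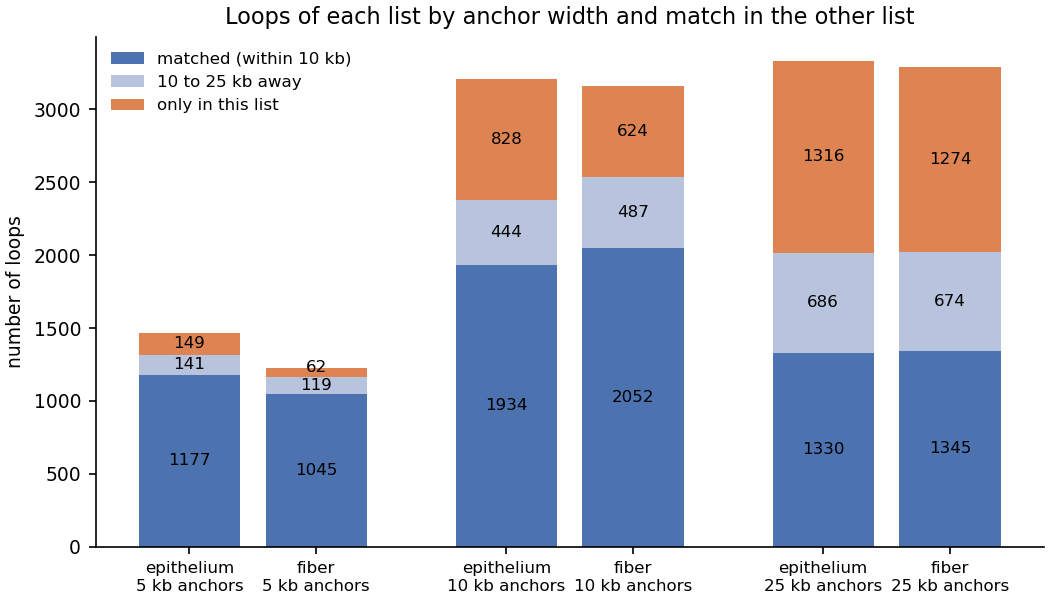
Number of loops (vertical axis) in each list by anchor width, split into matched loops, loops with a counterpart 10 to 25 kb away and loops present in that list only. The orange part is 62 of 1226 fiber loops at 5 kb and 1274 of 3293 at 25 kb.

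Loops present in 1 cell type only were weaker and more often rested on a single enriched pixel, the smallest square of the contact map. Their median of observed over expected contacts, where the expected count comes from a ring of pixels around the loop, was 2.62 in epithelium and 2.43 in fiber, against 3.42 and 3.09 in matched loops. Their median observed counts were higher over all widths, 58 and 71 contacts against 46 and 56, but lower within each width, with 82 against 94 contacts in epithelium and 90 against 117 in fiber at 25 kb. A single pixel made up 61.2% of the epithelium-only loops (interval 59.2 to 63.2) and 56.9% of the fiber-only loops (54.7 to 59.1), against 32.0% and 29.4% of matched loops. These measures come from the same caller that decides whether a loop is listed, and are given as a description. Over all widths fiber-only loops reached further, with a median distance between anchors of 297.5 kb (quartiles 130 and 600) against 225 kb (quartiles 110 and 475) in epithelium-only loops, while matched loops had a median of 250 kb in both lists. Within one width the order was not the same throughout, with 75 kb in fiber against 70 kb in epithelium at 5 kb anchors, 120 against 130 kb at 10 kb anchors and 425 against 350 kb at 25 kb anchors. Anchors of 25 kb made up 1274 of the 1960 fiber-only and 1316 of the 2293 epithelium-only loops. Below 100 kb, 34.8% of 1148 epithelium loops and 26.4% of 1013 fiber loops had no counterpart. Between 1600 and 3000 kb the order was the other way round, with 30.3% of 188 epithelium loops (interval 24.2 to 37.2) and 38.1% of 210 fiber loops (31.8 to 44.8), and these intervals overlapped. In both ranges the list with more loops had the higher share. The order of the shares therefore cannot be told apart from the number of loops listed at that distance.

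Loops present in 1 cell type only often shared an anchor with the other list. Of the 2293 epithelium-only loops, 780 (34.0%) had no anchor within 10 kb of any fiber anchor, 1143 (49.8%) had 1 and 370 (16.1%) had both. Of the 1960 fiber-only loops, 601 (30.7%) had none, 973 (49.6%) had 1 and 386 (19.7%) had both. Within 10 kb the most frequent case in either list was thus 1 shared anchor, and loops with no shared anchor outnumbered those with both. With anchors allowed within 25 kb that second order turned. No shared anchor was then found in 475 epithelium-only and 343 fiber-only loops, and both in 649 and 686.

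Matched loops were slightly weaker in lens fiber cells. For a comparison of strength, 4437 pairs of loops were each other's nearest within 10 kb, and 3256 of these had anchors of equal width. In 2302 of the 3256 pairs (70.7%, interval 69.1 to 72.2) observed over expected was lower in fiber, with a median ratio of fiber to epithelium of 0.929 (quartiles 0.832 and 1.02). The median was 3.30 in epithelium and 3.03 in fiber. Observed counts were higher in fiber, with a median ratio of 1.22, but the expected counts around the loops were higher still, with a median ratio of 1.31. The chromosome medians of the ratio lay between 0.915 and 0.952, below 1 on 20 of 20 chromosomes. By width, the median ratio was 0.877 for 5 kb, 0.918 for 10 kb and 0.957 for 25 kb anchors. By distance it lay between 0.888 and 0.937, with the lowest value in the 67 pairs above 2000 kb. Pairs with an ES cell counterpart had a median ratio of 0.909 (1674 pairs) and those without had 0.944 (1582 pairs).

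Changes of 1.5-fold or more were few, and most were toward epithelium. A ratio of at least 1.5 was found in 17 pairs (0.522%) and of 1/1.5 or less in 132 pairs (4.05%). Among the 1543 pairs with at least 50 contacts in both lists, 5 and 14 passed these limits. The listed distance was identical in 2231 pairs (68.5%), longer in fiber in 493 and longer in epithelium in 532, never by more than 20 kb, and the median was 260 kb in both.

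**Figure D2:**
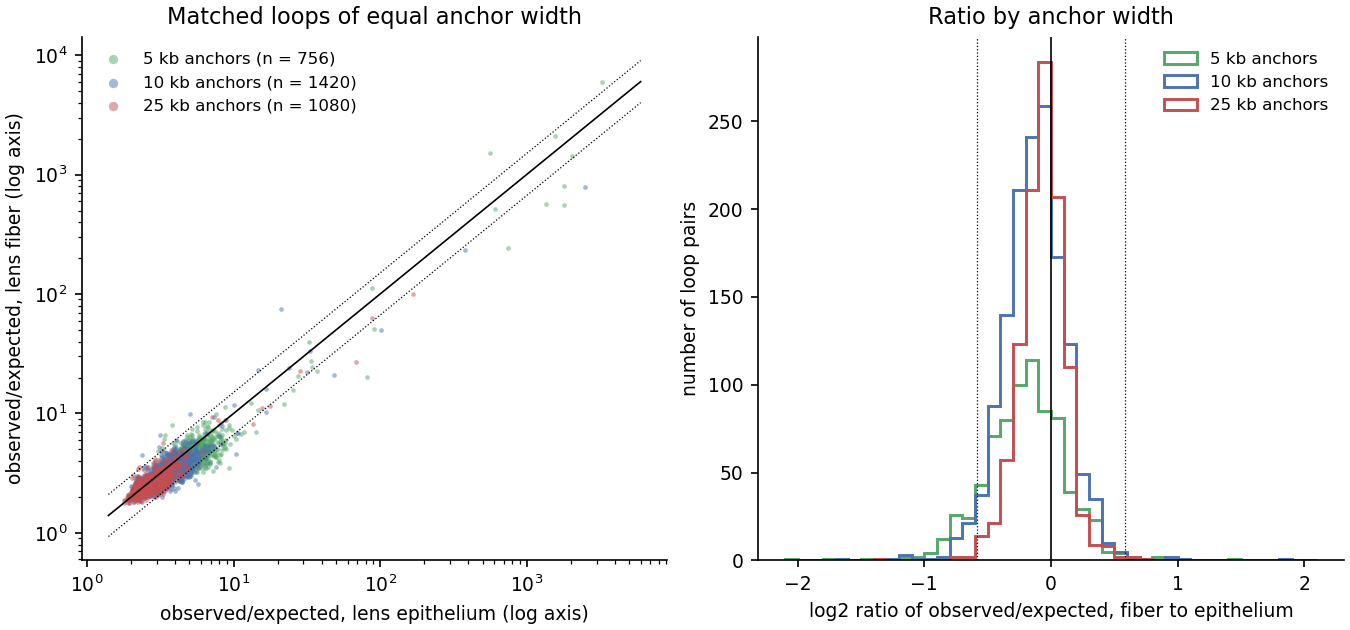
Left, observed over expected contacts of the 3256 matched loops of equal anchor width in lens epithelium (horizontal, log axis) and lens fiber (vertical, log axis), coloured by anchor width, with equality as a solid line and 1.5-fold as dotted lines. Right, number of pairs by log2 ratio of fiber to epithelium, where each width has its peak below 0 and the 5 kb loops spread most.

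The matched loop with the largest gain in fiber among those of at least 50 contacts with a gene at an anchor joined Acvr1, a type I receptor for BMP and activin ligands, to Upp2, a uridine phosphorylase, over 190 kb on chromosome 2. It had 62 contacts against 26.1 expected in epithelium (2.38, interval 1.82 to 3.05) and 81 against 18.2 in fiber (4.46, interval 3.54 to 5.55), a ratio of 1.88 with intervals that did not overlap. In second place came a loop between the natural killer receptor genes Klra7 and Klra1 (ratio 1.70), members of a gene family whose copies can share reads. The loop between Cars, a cysteinyl-tRNA synthetase, and Osbpl5, an oxysterol binding protein, spanned 175 kb on chromosome 7 and went from 134 contacts against 59.1 expected (2.27, interval 1.90 to 2.69) to 187 against 52.1 (3.59, interval 3.09 to 4.14). Osbpl5 also had 4 fiber-only loops and no epithelium-only loop. A 950 kb loop into the histone deacetylase gene Hdac9 had a ratio of 1.53, and the other 6 of these 10 loops, at Lmo7, Sorcs2, Gpc6, Cdkal1, Myom1 with Lpin2, and Maml3, had ratios of 1.36 to 1.47. At Myom1 with Lpin2 and at Maml3 the listed distance was not the same in the lists.

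In the other direction, the lowest ratio, 0.417, belonged to a 16160 kb loop on chromosome 17 between a site without a protein-coding gene and Mpnd with Stap2. It had 167 contacts against 0.122 expected in epithelium and 160 against 0.281 in fiber, so that the ratio rests on expected counts far below 1. The remaining 9 loops had ratios of 0.510 to 0.661. The first of them, 240 kb long in epithelium and 230 kb in fiber, had its fiber anchor in the chemokine gene Cxcl1 and had 55 contacts against 10.2 expected in epithelium (5.41, interval 4.08 to 7.05) and 60 against 21.7 in fiber (2.76, interval 2.11 to 3.55). Others joined Nars2 to Gab2, an adaptor of receptor tyrosine kinases (0.608), the plakophilin gene Pkp3 to Rnh1 (0.610), sites within the phosphatase gene Ptprr (0.614) and Clybl to the sodium leak channel gene Nalcn (0.661). In each of these the contacts were nearly equal in the lists and the expected count was higher in fiber. The listed distance in epithelium and fiber was 320 and 330 kb at Nars2, 80 and 70 kb at Pkp3 and 110 and 100 kb at Ptprr. The counts of these pairs thus came from different pixels.

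Gene bodies were then laid over the anchors. Of 21883 protein-coding genes, 6593 overlapped an epithelium anchor, 6316 a fiber anchor and 4959 both. A gene was called gained in fiber when it overlapped an anchor of a fiber-only loop and no anchor of any epithelium loop, which held for 990 genes (4.52%), and lost in the reverse case, which held for 1281 genes (5.85%). An anchor of any fiber-only loop was found at 2350 genes (10.7%) and of any epithelium-only loop at 2763 genes (12.6%), and 644 genes had both. Long genes meet more anchors. The median length was 17.2 kb over all genes, 25.1 kb for gained, 25.8 kb for lost and 55.3 kb for genes with anchors in both lists, so the length of its genes is given beside a list. The lists of lens genes hold 213 genes with a median length of 28.2 kb, of which 9 were gained and 12 were lost.

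Among 30 lens transcription factors (median length 26.98 kb), 23 had an anchor in the epithelium list and 23 in the fiber list. An anchor of a fiber-only loop was at 11 and of an epithelium-only loop at 11, against 10.7% and 12.6% of all genes. Jun, an AP-1 subunit, was gained, through an 810 kb loop to Fggy with 61 contacts against 24.8 expected. The highest FDR of this loop over its 4 backgrounds was 0.074, and an epithelium loop lay 50 kb away by the rule. Sox11 and Pknox1 were lost. Sox11, a SoxC factor of lens and anterior eye development, had 2 epithelium-only loops. The first ran 800 kb to one side, with 77 contacts against 32.8 expected (2.35, interval 1.85 to 2.93). The second ran 1100 kb to the other side into Dcdc2c, with 69 against 27.6 (interval of the ratio 1.95 to 3.17). No fiber loop had an anchor in Sox11. Rarb, a retinoic acid receptor, had 4 epithelium-only loops that joined sites within the gene 100 to 300 kb apart. They held 46 to 106 contacts and were 2.09 to 3.06 times the expected count. The fiber list held 1 other loop of 350 kb in Rarb, from an anchor that also overlapped Top2b (81 contacts against 38.7 expected).

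Several factors kept an anchor and differed in the partner. Maf, which drives crystallin genes and fiber elongation, had an epithelium-only loop of 950 kb to Wwox (61 contacts against 24.7 expected) and a fiber-only loop of 325 kb to the other side (170 against 74.0). Casz1, a zinc finger factor, had 2 loops in each list that the other did not hold. Fiber-only loops were also listed at Pitx3, a factor needed for lens formation, over 170 kb to Nfkb2 (80 contacts against 31.9), at Sox2 over 325 kb (172 against 78.2) and at Eya1 over 525 kb (93 against 42.2). Gata3, required for fiber cell differentiation, had an epithelium-only loop of 400 kb (57 contacts, with an interval of 2.27 to 3.89 for the ratio to the expected count). Among the 18 matched pairs of equal width at these factors, 12 were lower in fiber with a median ratio of 0.945, close to that of all pairs, and none passed 1.5-fold. Pax6, the master regulator of eye development, fell outside the rule for named genes and was added after its values were seen. It had 1 matched loop in each list, of 50 kb, with 83 contacts against 26.8 expected in epithelium and 86 against 36.8 in fiber. A further 3 epithelium loops and 2 fiber loops at Pax6 were neither matched nor present in 1 cell type only. The paper describes 2 loops on the 3' side of Pax6, across Elp4, in lens epithelium alone.

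FGF, BMP and Notch signals set the switch from epithelium to fiber cells. Of the 30 genes of these pathways (median length 51.4 kb), 5 had an anchor of a fiber-only loop and 4 of an epithelium-only loop. The shares over all genes were 10.7% and 12.6%. Among ligands and receptors, Dll1, a Notch ligand, was gained, with a loop of 175 kb (264 contacts against 130 expected). Fgfr2, an FGF receptor, had matched loops and a fiber-only loop of 500 kb (185 against 76.7). Notch2 had an epithelium-only loop of 175 kb (165 against 67.7). Among targets and inhibitors, Hes1, a Notch target that holds cells undifferentiated, had 3 fiber-only loops and none in epithelium only. They were 425 kb long to Opa1 (135 against 59.3), 60 kb (68 against 33.6) and 120 kb (66 against 31.6), and a matched loop of 335 kb had 30 contacts in both lists, against 4.87 and 6.40 expected. Dusp6, a phosphatase induced by FGF that shuts off ERK, was lost with its loop of 300 kb (160 contacts against 71.7). Spry2 and Spred1, inhibitors of the same pathway, each had 1 loop in either list that the other did not hold. The Acvr1 loop described above was the single pair of 16 at these genes that passed 1.5-fold.

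Fiber membrane and cytoskeleton genes build the elongated cell. Of 26 such genes (median length 56.8 kb), 6 had an anchor of a fiber-only loop and 7 of an epithelium-only loop. Over all genes these shares were 10.7% and 12.6%. None of the 26 was gained, and Efna5, Slc7a11 and Sptan1 were lost, against 4.52% and 5.85% of all genes. Efna5, an ephrin of the fiber membrane, had 2 epithelium-only loops inside the gene, of 170 kb (31 contacts against 11.6 expected) and 80 kb (46 against 18.4), with the nearest fiber loop 2662.5 kb away or more by the rule. Sptbn1, a spectrin, had 2 epithelium-only loops, over 575 kb (94 against 31.0) and 725 kb (58 against 24.8). Nrcam, an adhesion molecule, had 1 loop in epithelium only and 2 in fiber only. Fiber-only loops reached Bfsp1, which encodes the beaded filament protein filensin, over 600 kb (85 against 38.9), Lgsn, which encodes lengsin, over 1350 kb (50 against 17.8) and Vim, the vimentin gene, over 175 kb (212 against 111).

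Of the 16 crystallin genes (median length 6.30 kb), whose products fill the fiber cells, 3 had an anchor in the epithelium list and 2 in the fiber list. None had an anchor of a loop present in 1 cell type only. Over all genes the shares were 10.7% for fiber-only and 12.6% for epithelium-only loops. The 23 lens epithelium genes (median length 47.9 kb) held 3 with an anchor of a fiber-only loop and 3 with one of an epithelium-only loop. The frizzled receptor gene Fzd3 was lost (45 contacts against 14.1 expected over 90 kb). Pdgfra, the receptor through which the epithelium responds to PDGF, had 2 epithelium-only and 2 fiber-only loops from 1 anchor, with distances of 550 and 1300 kb against 1100 and 1475 kb. Wnt7a had a fiber-only loop of 575 kb to Iqsec1 (77 against 29.9).

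Of 20 genes of cell cycle exit (median length 16.9 kb), 1 was gained and 2 were lost, against 4.52% and 5.85% of all genes. E2f1, a driver of S phase, was gained through a loop of 50 kb to Pxmp4 (78 contacts against 36.9 expected). Cdkn1c, the p57 inhibitor that stops the cycle as fiber cells form, was lost with a loop of 170 kb to Kcnq1 (52 against 18.2). E2f3 was lost with 2 loops, of 125 kb into Cdkal1 (155 against 68.8) and of 100 kb (48 against 19.3). Ccnd1, the cyclin D1 gene, had an epithelium-only loop of 180 kb (54 against 16.4). Myc had 4 epithelium-only loops of 350 to 1670 kb from 1 anchor, with 39 to 128 contacts, and 1 fiber-only loop of 1125 kb (117 contacts against 42.6). Myc also had 3 matched loops in each list.

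The 24 genes of hypoxia and organelle loss had a median length of 28.7 kb. An anchor of a fiber-only loop was at 6 and of an epithelium-only loop at 4, against 10.7% and 12.6% of all genes. Hif1a had 2 fiber-only loops that met at the anchor from 73900001 to 73910000, which holds the promoter shown above. The longer ran 190 kb into Prkch, a protein kinase C gene, with 71 contacts against 18.3 expected (3.87, interval 3.02 to 4.88). The shorter ran 60 kb to Snapc1, a subunit of the snRNA activating complex, with 29 contacts against 6.92 (4.19, interval 2.81 to 6.02). A further Hif1a loop was matched. Vegfa, a hypoxia target, had a fiber-only loop of 175 kb (238 contacts against 125), while Slc2a1 was lost with a loop of 100 kb (83 against 28.1). The nearest fiber loop to it lay 30 kb away by the rule, just past its limit. Dnase2b, the nuclease that degrades fiber cell DNA, had 1 loop in each list that the other did not hold, to Ttll7 over 350 kb in epithelium and to Prkacb over 200 kb in fiber.

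Genes of the looping machinery itself were counted in the same way. Of 20 genes of CTCF, cohesin and condensin, 5 were gained (Ctcf, Smc3, Stag2, Pds5b and Esco1) and 1 was lost (Pds5a), against 4.52% and 5.85% of all genes, and their median length was 45.5 kb. Ctcf had a fiber-only loop of 50 kb within the gene and into Carmil2 (70 contacts against 34.3 expected). Smc3, a core cohesin subunit, had 2 fiber-only loops, of 275 kb to Pdcd4 (100 against 44.4) and of 1575 kb to Gucy2g (58 against 23.9). Stag2, a cohesin subunit, had a fiber-only loop of 225 kb to Sh2d1a (81 against 35.6). Pds5b had one of 690 kb to Stard13 (25 against 4.88) and Esco1, a cohesin acetyltransferase, one of 90 kb to Abhd3 (33 against 14.0). Pds5a was lost with a loop of 300 kb (35 against 7.91). Stag1 had 2 epithelium-only loops, of 100 kb (155 against 76.1) and 275 kb (100 against 47.2), and kept matched loops. The list was chosen with earlier results of these data known and gets no test.

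Markers of other ocular cells, such as retina, cornea and blood, were 25 genes with a median length of 19.6 kb. Of these 1 was gained (Ptprc) and 1 lost (Krt5), against 4.52% and 5.85% of all genes. An anchor of a fiber-only loop was at 2 and of an epithelium-only loop at 2, against 10.7% and 12.6% of all genes.

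**Figure D3:**
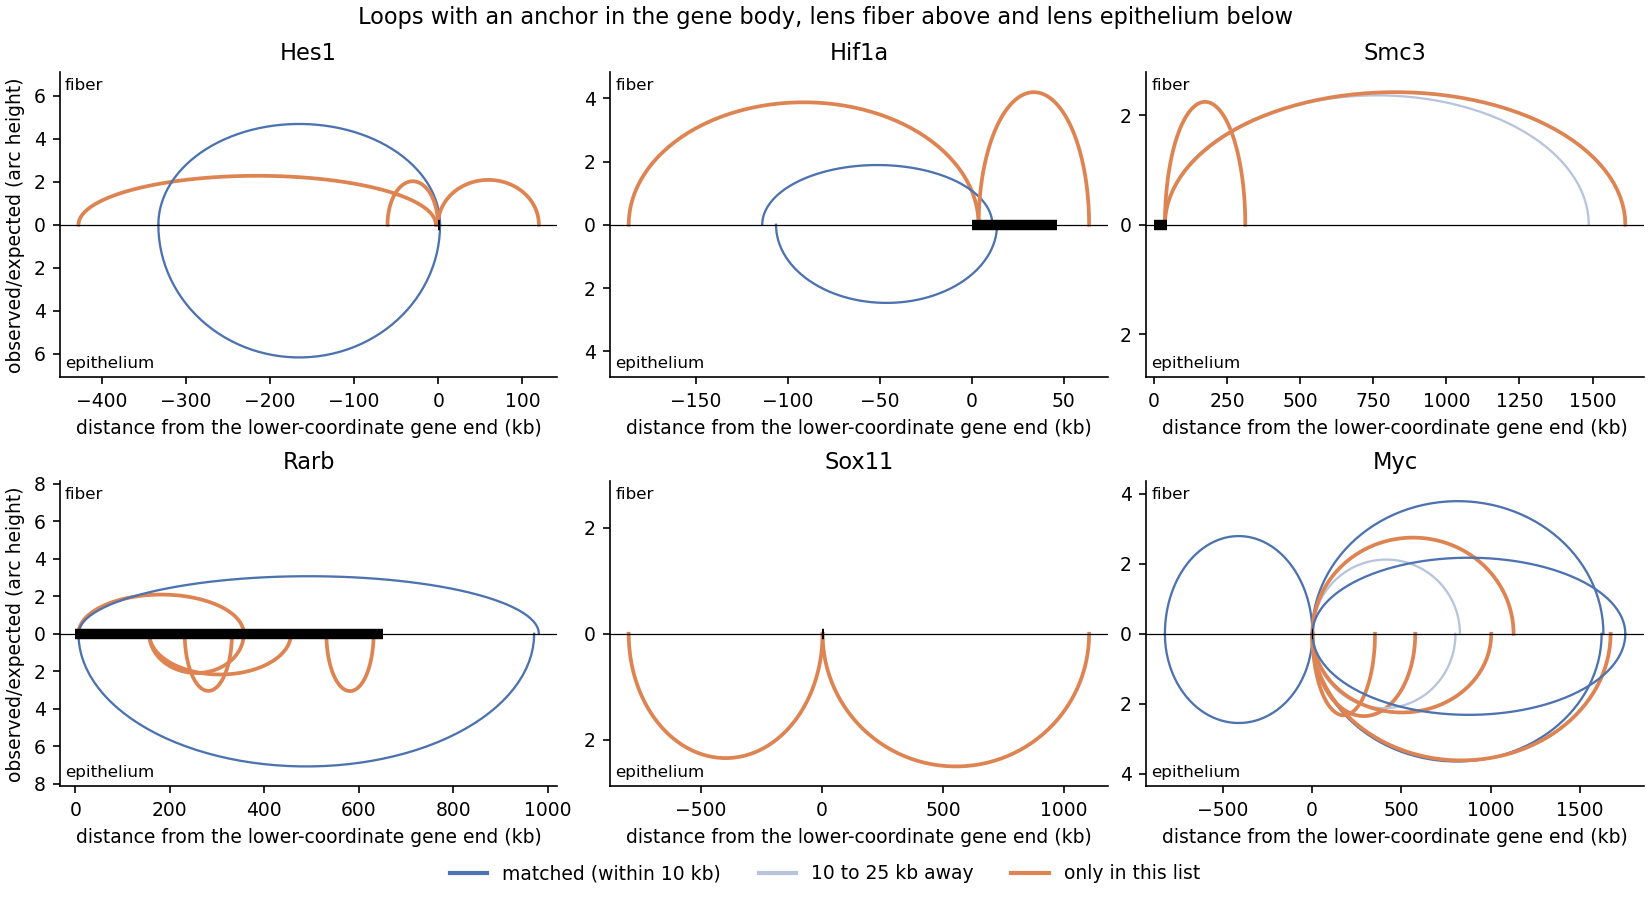
Loops with an anchor in the gene body of 6 genes, as arcs over the distance from the gene end of lower coordinate (horizontal, kb), with fiber loops above and epithelium loops below the line and arc height giving observed over expected contacts. The black bar is the gene. Orange arcs, present in that list only, stand above the line at Hes1, Hif1a and Smc3 and mostly below it at Rarb, Sox11 and Myc.

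Beyond these lists, the strongest loops present in 1 cell type only were taken from those with at least 50 contacts and a gene body at both anchors, 700 in epithelium and 731 in fiber. The epithelium-only loops were led by a 100 kb loop on chromosome X from the kinase gene Araf to Cfp and Elk1 (97 contacts against 18.6 expected, 5.22, interval 4.24 to 6.37). After it came loops within Zbtb7c (4.27) and Ctdspl (4.25), between Ulk4 and Trak1 (4.25), between Acox3 and Sh3tc1 (4.25), from D6Wsu163e to Fgf23 and Tigar (4.17) and from Htr1b to Phip (4.10). The remaining 3 of the 10, at Cibar2 with Gse1, Mrgbp with Slc17a9, and within Trpc5, were 3.84 to 4.05 times the expected count. In 6 of the 10 a fiber loop lay 27.5 to 50 kb away by the rule, not far past its limit.

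The fiber-only loops were led by a 100 kb loop on chromosome 7 from Zfp418 to Clcn4 and Vmn2r29, with 62 contacts against 5.99 expected (10.3, interval 7.93 to 13.3), in a region of zinc finger and pheromone receptor families whose copies can share reads. Loops within long genes followed, in the axon guidance receptor gene Robo1 (4.47), in Auts2 (4.42), in the synaptic gene Pclo (4.26) and in Reln (4.03). Others joined Fam114a1 to Tmem156 (4.13), Cwc22 to Zswim2 over 6025 kb (interval 3.22 to 4.91) and 6030498E09Rik to Gria3 over 2800 kb (3.99). Next came the loop between Prkch and Hif1a (3.87) and one between Slc35f3 and Tarbp1 (3.82). Of these fiber-only loops, all but the one between Prkch and Hif1a rested on a single pixel. Among the epithelium-only loops above, those at Mrgbp with Slc17a9 and within Trpc5 did. An epithelium loop lay 40 kb from the Robo1 loop, 27.5 kb from the Auts2 loop and 47.5 kb from the Fam114a1 loop by the rule.

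Counted by gene, most anchors of fiber-only loops fell in Sema3a (9 anchors of 6 loops), Nav2, Robo1 and Slit2 (7 each) and Hdac9 (6, tied with other genes). Sema3a, Robo1 and Hdac9 had no epithelium-only loop. Most anchors of epithelium-only loops fell in Otud7a and Rarb (8 each), Nrxn3 (7), Cux1 and Dlg2 (6, tied with other genes). Otud7a, a deubiquitinase gene, had 6 epithelium-only loops against none in fiber only, and Cux1, a homeobox gene, had 4 epithelium-only loops and no loop in the fiber list at all. These genes are 319 to 1973 kb long.

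The fiber list held more TADs, and most of the surplus was in small ones. Of 1796 epithelium TADs 1292 were matched (71.9%, interval 69.8 to 74.0), and of 2641 fiber TADs 1292 were matched (48.9%, interval 47.0 to 50.8). The sizes left a gap near 200 kb. No epithelium TAD lay between 165 and 305 kb, and 3 fiber TADs lay between 200 and 260 kb. From 200 kb upward the lists were alike in number, with 1058 and 1109 TADs of which 694 were matched. The unmatched ones of this size had a median of 450 kb in epithelium and 510 kb in fiber. Below 200 kb there were 738 epithelium and 1532 fiber TADs with 598 matched, so that 81.0% of the small epithelium TADs but 39.0% of the small fiber TADs had a counterpart. The number of matched TADs is the same in both lists, so the matched share is lower in the longer one.

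**Figure D4:**
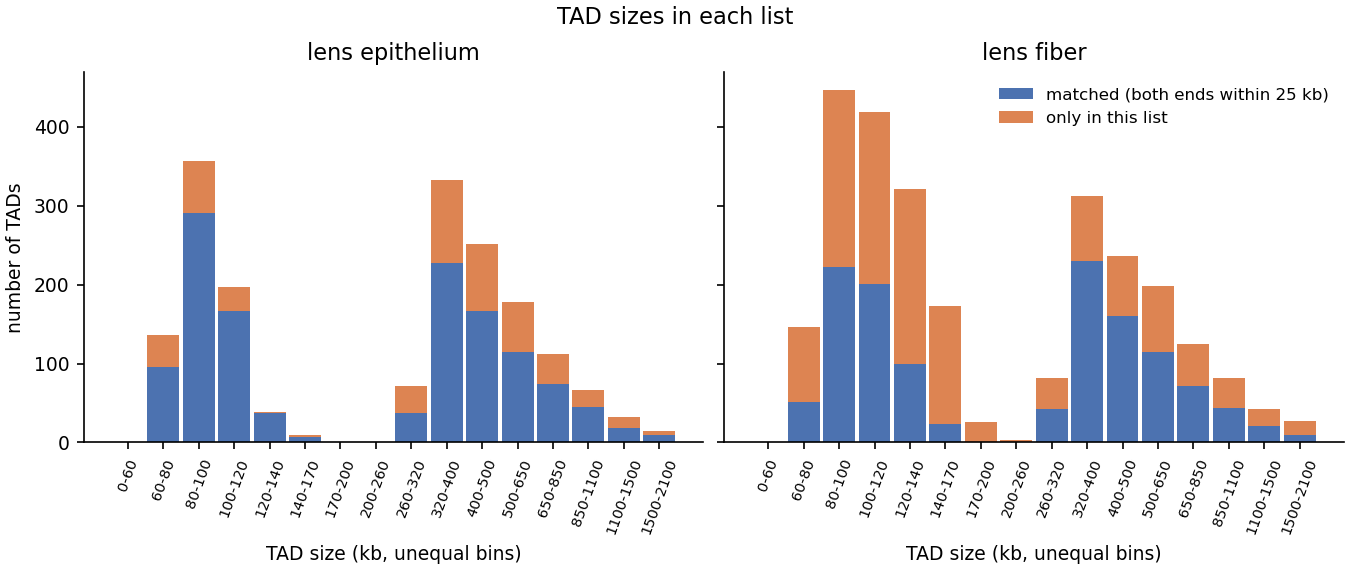
Number of TADs (vertical axis) by size in kb (horizontal axis, unequal bins) in lens epithelium and lens fiber, split into matched TADs and TADs present in that list only. Fiber-only TADs fill the bins from 60 to 200 kb, 934 in all, while above 260 kb the panels are closer in number. Epithelium-only and fiber-only TADs number 105 and 82 at 320 to 400 kb, and 4 and 18 at 1500 to 2100 kb.

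Matched small TADs were also a little larger in fiber. Of 598 pairs below 200 kb, 385 were larger in fiber, 107 smaller and 106 equal, with a median change of 5 kb, the step of the TAD list. Of 694 larger pairs, 224 were larger in fiber, 266 smaller and 204 equal.

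Many TADs present in 1 list had a loop at their corners in both. Of the 934 small fiber-only TADs, 472 (50.5%, interval 47.3 to 53.7) had a loop of both lists with its anchors within 25 kb of the TAD ends, 96 had an epithelium loop alone, 79 a fiber loop alone and 287 none. Of the 140 small epithelium-only TADs, 66 had loops of both lists. TADs of 200 kb or more present in 1 list less often had any corner loop, with none in 205 of 364 in epithelium and in 249 of 415 in fiber. The ES cell TAD list, which the rule did not use, held a counterpart within 25 kb for 47.5% of the small fiber-only TADs (interval 44.4 to 50.7) and 66.4% of the matched small fiber TADs. For small epithelium TADs these shares were 32.1% (interval 24.97 to 40.27) and 62.2%.

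Ends of large TADs present in 1 list were compared with the ends in the other list, of which the fiber list, with 2641 TADs against 1796, offers more. Of the 364 epithelium-only TADs of 200 kb or more, 214 shared 1 end and 36 both ends with fiber TAD ends, and 246 held a whole fiber TAD. Of the 415 fiber-only ones 170 shared 1 end and 8 both, and 91 held an epithelium TAD. The largest fiber-only TAD spanned 2000 kb on chromosome 12, from 26480001 to 28480000, with Sox11 as the single protein-coding gene within it, and both epithelium-only loops of Sox11 lay inside it. A loop of 1900 kb with anchors within 55 kb of its ends was listed at the same place in both lists. Next were TADs of 1945 kb around Epha4 and around Pou3f3, both on chromosome 1, of 1895 kb around Tle4 on chromosome 19 and of 1890 kb with Kbtbd8, Suclg2 and Tafa1 on chromosome 6. Large epithelium-only TADs were those of 1650 kb with Tbl1xr1 on chromosome 3, of 1600 kb with Ebf3 and Mgmt on chromosome 7 and of 1455 kb with Fign on chromosome 2. For the one with Ebf3 and Mgmt, a fiber TAD lay 30 kb away by the rule, just past its limit of 25 kb.

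An end of a fiber-only TAD fell in 1327 gene bodies (6.06%) and of an epithelium-only TAD in 512 (2.34%). Among the lens gene lists it was 17 of 213 and 4 of 213. Both beaded filament genes had one, with a fiber-only TAD of 110 kb that began in Bfsp1 and one of 90 kb that ended in Bfsp2. The collagen genes Col4a1 and Col4a2, of the lens capsule, carried the start and the end of a fiber-only TAD of 190 kb, and Efna5 carried both ends of one of 95 kb. Ends of fiber-only TADs also fell in Cdh1, Lrp6, Wnt7b, Sptbn1, Bmpr1a, Ptpn11, Ccnd3, Epas1, Lmnb1 and Ctcfl, and ends of epithelium-only TADs in Nrcam, Ccnd2 and Bfsp1.

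CTCF peaks and ES cell loops, which the matching rule did not use, were then compared between the classes. The CTCF lists, 1 per cell type, cannot be split into the biological replicates that the methods name, and held 16433 peaks in epithelium and 23868 in fiber, so shares are read within 1 peak list. A fiber peak lay at both anchors of 42.3% of matched fiber loops (interval 40.9 to 43.8), 32.3% of those 10 to 25 kb from a counterpart and 36.0% of fiber-only loops (33.9 to 38.2). The same peaks lay at both anchors of 43.4% of matched epithelium loops (interval 41.9 to 44.9) and 29.4% of epithelium-only loops (27.6 to 31.3). With epithelium peaks the shares were 17.7% of matched (interval 16.6 to 18.8) and 12.7% of epithelium-only loops (11.4 to 14.1), and 17.4% of matched (16.4 to 18.6) and 16.2% of fiber-only loops (14.6 to 17.9), and the last pair of intervals overlapped. Wide anchors meet more peaks, and the classes differ in width. Within 25 kb anchors, both ends held a fiber peak in 53.2% of matched and 39.95% of fiber-only loops, and an epithelium peak in 23.2% of matched and 14.7% of epithelium-only loops. No CTCF peak of either list lay at any anchor of 23.2% of epithelium-only and 18.4% of fiber-only loops, against 13.4% and 13.5% of matched ones.

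Loops of both lens cell types were more often found in ES cells. A loop of v6.5 ES cells lay within 10 kb of 52.7% of matched epithelium loops (interval 51.2 to 54.2) and 17.2% of epithelium-only loops (15.7 to 18.8), and of 52.5% of matched fiber loops (51.0 to 54.0) and 14.7% of fiber-only loops (13.2 to 16.4). The difference held within each width. Among 5 kb anchors the shares were 79.0% and 31.5% in epithelium and 80.8% and 33.9% in fiber, and among 25 kb anchors 27.1% and 10.3%, and 27.4% and 10.4%. Loops that span a TAD of their own list, with anchors within 25 kb of its ends, made up 18.6% of matched and 6.54% of epithelium-only loops, and 27.1% of matched and 7.45% of fiber-only loops.

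**Figure D5:**
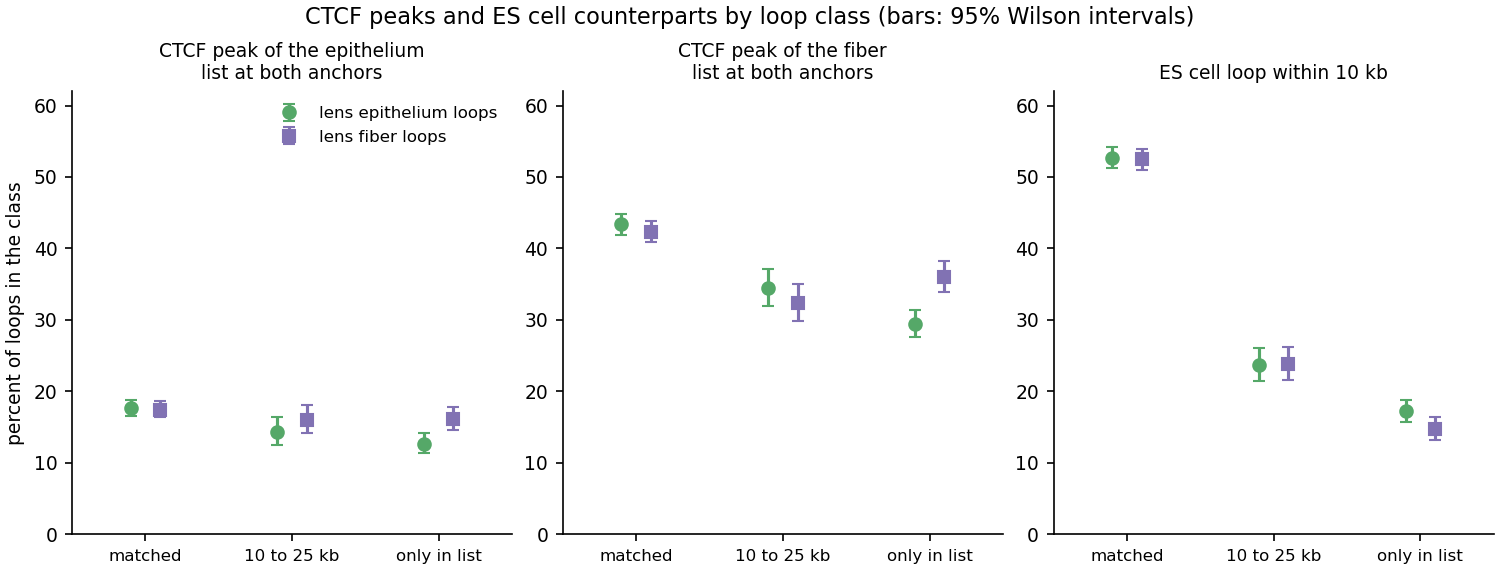
Percent of loops (vertical axis) of each class (horizontal axis) with an epithelium CTCF peak at both anchors, with a fiber CTCF peak at both anchors and with an ES cell loop within 10 kb, for lens epithelium (circles) and lens fiber (squares), with 95% Wilson intervals. ES cell counterparts drop from 52.7% and 52.5% in matched to 17.2% and 14.7% in loops present in 1 list only.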

How the data were processed

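Hi-C of lens epithelium, lens fiber and v6.5 ES cells (2 replicates each) and CTCF ChIP-seq of the lens cell types (1 deposited sample each, with 2 biological replicates per the methods) were used. Reads were aligned to mm10 with BWA in the ENCODE Hi-C pipeline, and the authors merged replicates before calling loops with HiCCUPS (juicer_tools 2.13.06 per the file headers) and TADs with Arrowhead. The deposited loop lists give raw contact counts per loop, expected counts from 4 local backgrounds and q-values (FDR) for each. The deposited CTCF peak lists were called by the authors with MACS2 and give −log10 q-values, used only for a stricter peak set among the alternatives. Sequencing depth was not used here.

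Loops and TADs were matched by position and anchors were laid over RefSeq gene bodies (GRCm38.p6, the mm10 build, no strand given). Loop strength was observed over donut expected counts. As replicates were merged, spread between them is unknown and no test was run. Wilson and exact Poisson intervals (95%) cover counting error only. Python 3.11.15, pandas 2.3.3, NumPy 2.4.6, SciPy 1.17.1 and matplotlib 3.10.9 were used, and a self-test of the matching on simulated lists of 1800 loops each passed 8 of 8 checks.

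The members and gene lists were chosen with earlier results of these data known. Named were members of the gene lists with an anchor or TAD end present in 1 cell type only, the 10 strongest such loops with at least 50 contacts and genes at both anchors, the 10 matched pairs with the largest ratio each way with at least 50 contacts in both lists, the 5 largest such TADs and the 5 genes with most such anchors per cell type. Alternatives changed the tolerance, FDR limit, anchor width, expected background, list size, gene rule and peak list. Some items that this rule names are not reported here.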

Additional observations from a re-analysis of the deposited data

How the results depend on the processing

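No paired analysis was possible because the replicates were merged into 1 list per cell type before loops and TADs were called. For the same reason no replicate could be left out, and differences between cell types carry no replicate error. Of 84 alternative values for 18 results, 21 moved by less than the spread allowed and 63 moved further. The values below are given for epithelium first and then for fiber.

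The share of matched loops was 37.7% and 39.3% with 5 kb allowed, 71.4% and 74.5% with 25 kb allowed, 41.5% and 43.3% when both anchors had to overlap, and 47.4% and 48.8% with an FDR below 0.01 in all 4 backgrounds. Within one anchor width it was 51.7% and 61.9% at 5 kb, 44.4% and 45.0% at 10 kb, and 32.4% and 32.8% at 25 kb. With the longer list reduced to the size of the shorter, the shares were 57.0% and 57.1%. Loops present in 1 cell type only numbered 149 and 62 at 5 kb, 828 and 624 at 10 kb, and 1316 and 1274 at 25 kb. Their median distance was 70 and 75 kb, 130 and 120 kb, and 350 and 425 kb at these widths, so that the order of the lists turned at 10 kb. By outer span the fiber median was 305 kb.

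The share of matched loops weaker in fiber was 67.8% over all mutual pairs, 68.6% with the lower-left, 66.4% with the horizontal and 66.9% with the vertical background, 75.1% at 5 kb and 66.2% at 25 kb. The median ratio was 0.922 over all mutual pairs, 0.936 with either the horizontal or the vertical background, 0.877 at 5 kb, 0.918 at 10 kb, 0.957 at 25 kb and 0.945 with at least 50 contacts in both lists.

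The share of matched TADs was 56.1% and 38.2% with ends within 10 kb, 76.6% and 52.1% within 50 kb, 65.6% and 62.6% for TADs of 200 kb and above, and 81.0% and 39.0% below 200 kb. Chosen after seeing the data, the share with at least 1 end within 25 kb of any end was 89.8% and 66.5%. Genes gained and lost numbered 2350 and 2763 when any loop present in 1 cell type only counted, and 562 and 740 when the promoter window had to lie in the anchor, also chosen after seeing the data.

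The CTCF share in matched loops minus that in loops present in 1 cell type only was 5.01 and 6.33 percentage points. It was 8.86 and 13.9 with anchors widened by 5 kb, 14.0 and 1.27 with the peak list of the other cell type, and 9.33 in fiber at 10 kb anchors. The same difference for ES cell counterparts was 35.5 points in epithelium, and 38.5 within 25 kb. The share of these loops with no anchor in the other list was 20.7% and 17.5% within 25 kb. The cause of these changes was not tested.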
